A study of Mus musculus with 4 samples.

Results

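The genes described here are 51 mouse genes of ribosome biogenesis and the nucleolus, chosen by symbol from a list of proteins that make, cut, modify and assemble ribosomal RNA. They are 51 of 18193 genes that the array annotation pairs with a probe set of 1 symbol, and all 51 have at least 1 such probe set. RNA was labelled as coming from MC/9, an established mast cell line that the labels trace to liver of (B6 X A/J)F1 mice. The 4 groups were cells given berberine (BER, a plant alkaloid) at 10 microM, cells given berberine at 10 microM with anti-DNP IgE at 500 microg/ml (BER+DNP), cells given anti-DNP IgE at 500 microg/ml (an antibody to the hapten dinitrophenyl, labelled DNP), and untreated cells (control). In the treated groups 24 h of treatment were followed by 6 h of culture, and the labels give the control no times, so time in culture and treatment cannot be told apart in comparisons with the control. The treatment label of BER+DNP names a combination of both agents without doses, and the doses given here for it are those of BER and DNP. The labels name no antigen step after the antibody. There was 1 array per group, so values carry no replicate error, no test was run and every difference below is a difference between 2 arrays.

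Ribosomes are built mainly in the nucleolus, where RNA polymerase I transcribes a long precursor of ribosomal RNA. Small nucleolar ribonucleoproteins (snoRNPs) then guide 2′-O-methylation (box C/D) and pseudouridylation (H/ACA) of that precursor, and processing complexes cut it and fold it into a small and a large subunit. Dividing cells spend much of their transcription on this pathway, and many of its genes are known targets of the transcription factor Myc, which binds the E-box CACGTG.

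Promoter windows from RefSeq (mouse GRCm38.p6) are shown here for 5 members because they let the reader see where that E-box lies in the genes whose signals are described below. Each is 180 bases on the gene's strand, 150 before the annotated transcript start and 30 from it, and capitals mark CACGTG. The Nop56 window is chr2:130274262-130274441 on the + strand and holds no CACGTG, and it is printed because Nop56 had the largest difference of any member between BER and control. The Pes1 window is chr11:3963825-3964004 on the + strand, with the motif from base 153 of the printed run. The Utp18 window is chr11:93885737-93885916 on the - strand, with the motif from base 131. The Nop2 window is chr6:125131733-125131912 on the + strand, with the motif from base 91. The Wdr43 window is chr17:71616065-71616244 on the + strand, with the motif from base 168. Pes1 and Utp18, and also Nop56 without the motif, were lower on both berberine arrays than on both others, while Nop2 and Wdr43, which hold the motif, were not.
Nop56: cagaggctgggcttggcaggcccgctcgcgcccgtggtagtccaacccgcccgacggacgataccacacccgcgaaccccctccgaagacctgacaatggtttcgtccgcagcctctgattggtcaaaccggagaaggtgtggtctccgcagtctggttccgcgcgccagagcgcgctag
Pes1: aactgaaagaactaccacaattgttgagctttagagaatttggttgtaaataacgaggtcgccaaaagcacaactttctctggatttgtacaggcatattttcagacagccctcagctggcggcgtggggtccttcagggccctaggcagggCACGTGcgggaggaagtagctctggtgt
Utp18: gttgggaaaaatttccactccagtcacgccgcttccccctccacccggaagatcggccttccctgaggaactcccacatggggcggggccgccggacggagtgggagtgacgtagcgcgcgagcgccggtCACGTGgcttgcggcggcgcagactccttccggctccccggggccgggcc
Nop2: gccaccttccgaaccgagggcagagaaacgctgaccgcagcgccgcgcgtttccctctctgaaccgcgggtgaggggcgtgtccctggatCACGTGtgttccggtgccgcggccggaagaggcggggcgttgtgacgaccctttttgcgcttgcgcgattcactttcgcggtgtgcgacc
Wdr43: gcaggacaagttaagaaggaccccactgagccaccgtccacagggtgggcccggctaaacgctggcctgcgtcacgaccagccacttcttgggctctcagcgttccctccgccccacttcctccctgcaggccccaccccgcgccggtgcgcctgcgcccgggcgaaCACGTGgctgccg

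A window of 300 bases, 250 before to 50 after the start, was given for 44 of the 51 members. CACGTG, searched on both strands, was present in at least 1 window of 10 of the 44 (22.7%), against 8.09% of all 27025 genes with a window, 8.91% of the 17491 protein-coding ones and 10.8% of the 10057 whose signal passed the filter described below. The 10 were Rrn3, Nop2, Pes1, Mybbp1a, Imp4, Ltv1, Tsr1, Utp18, Utp20 and Wdr43. Among members past the filter, 3 of 7 with CACGTG and 11 of 29 with windows that lack it read lower on both berberine arrays than on both others, as did 19.7% of all genes past the filter. The variant CACGCG was present in 15 of 44 (34.1%), against 10.5% of all genes and 17.8% of genes past the filter, and GGGCGG, the core of the GC box, in 32 of 44 (72.7%), against 38.2% and 62.0%. CACGTG and CACGCG overlapped in 0 member windows. The median GC content of the member windows was 59.7%, against 56.3% in protein-coding genes, and its part in the shares was not tested. These matches describe letters in the windows, and no binding was measured.

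The arrays were Affymetrix Mouse Genome 430 2.0 arrays, on which 1 or more probe sets of short oligonucleotides read each transcript, and values are log2 signals, so a difference of 1 is 2-fold. The 4 arrays had medians between 3.13 and 3.15 and pairwise Pearson correlations across 45037 probe sets between 0.988 and 0.991. A gene is represented by its brightest probe set and passed the filter if its mean log2 signal over the 4 arrays reached 3.14, the median of all probe sets other than controls. The labelled cell type was only partly visible: 6 of 13 mast cell markers passed, where 69.2% of all genes did. Those that passed were Fcer1g, Hdc, Tpsb2, Mcpt4, Cma1 and Gata2. Kit, Fcer1a, Ms4a2, Cpa3, Tpsab1, Mitf and Srgn did not pass. Of the epithelial markers 6 of 7 passed, and of the blood cell markers 2 of 5. The epithelial ones were Krt5, Krt14, Krt17, Krt8, Krt18 and Epcam, with a mean log2 signal of 9.60 for Krt17 and 8.61 for Krt14. Whether the RNA was that of mast cells was not tested. Summed log2 signals of the epithelial list were 41.4 in BER, against 41.7 in control, and 42.2 in BER+DNP, against 42.4 in DNP. For the mast cell list they were 43.7 in BER, against 42.0 in control, and 44.1 in BER+DNP, against 43.7 in DNP. For the blood cell list they were 18.3 in BER, against 18.9 in control, and 17.9 in BER+DNP, against 18.8 in DNP. Each sum includes genes below the filter. In the mast cell list the widest difference between BER and control was that of Cpa3, 3.15 against 1.90, which did not pass. The part of these cell types in the results was not tested, and in RNA of whole cultures fewer cells of a type and less RNA per cell cannot be told apart.

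Of the 51 members, 40 passed the filter (78.4%), against 69.2% of all genes (12585 of 18193). By role they were 4 of 5 for RNA polymerase I, 4 of 4 for box C/D snoRNPs, 4 of 4 for H/ACA snoRNPs, 13 of 19 for the small subunit, 10 of 14 for the large subunit and 5 of 5 nucleolar proteins that act at several steps. A probe set's brightness also depends on its probes, so signals are compared between arrays and never between genes.

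The question of the berberine comparisons was whether these genes differ in cells given berberine, first without and then with anti-DNP IgE. The 2 pairs of arrays, BER with control and BER+DNP with DNP, share no array. The median difference of the 40 members was -0.09 for BER minus control, where all genes past the filter had a median of 0.00, and -0.14 for BER+DNP minus DNP, where all genes had -0.02. Differences ran from -0.75 to 0.37 in the first pair and from -0.94 to 0.24 in the second. The middle of the members, from the lower to the upper quartile, lay between -0.21 and 0.06 in the first pair and between -0.28 and 0.00 in the second.

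Differences of 1.5-fold or more were rare. In BER against control, 1 of 40 members was at least 1.5-fold lower (Nop56), where 0.985% of all genes were, and 0 were at least 1.5-fold higher, where 1.01% were. In BER+DNP against DNP, 1 of 40 was at least 1.5-fold lower (Rrp36), where 0.699% of all genes were, and 0 were higher, where 0.509% were. No member passed 1.5-fold in both pairs, where 0.159% of genes were lower and 0.0795% higher, and 0 reached 2-fold in either. For 2-fold the background was 0.0636% higher and 0.0318% lower in BER against control, and 0.00795% each way in BER+DNP against DNP.

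Small differences leaned one way. In BER against control 24 of 40 members lay below 0 (background 49.9%) and 15 above (background 48.9%). In BER+DNP against DNP 30 of 40 lay below 0 (background 53.2%) and 10 above (background 45.4%). In both pairs at once, 21 of 40 lay below 0 (52.5%), against 29.7% of all genes, and 7 lay above 0 (17.5%), against 25.4%. Both berberine arrays read lower than both arrays without berberine, with no overlap, for 17 of 40 members (42.5%), against 19.7% of all genes. The 17 were Nop56, Fbl, Dkc1, Nhp2, Gar1, Bms1, Emg1, Imp3, Utp18, Utp20, Bop1, Pes1, Wdr74, Noc2l, Nolc1, Npm1 and Ddx21. Both berberine arrays read higher for 2 members (5%), Ubtf and Polr1a, against 16.1% of all genes. Among brighter genes, those at or above the 75th percentile of signal, the lower count was 16 of 34 members (47.1%), against 22.4% of all such genes. Counted over the 53 member probe sets past the filter instead of genes, 26 lay below 0 in both pairs (49.1%), against 29.5% of 18496 probe sets, and 10 above (18.9%), against 25.2%. Of the same 53, 20 were lower without overlap (37.7%), against 19.3%, and 4 were higher (7.55%), against 15.7%.

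**Figure D1:**
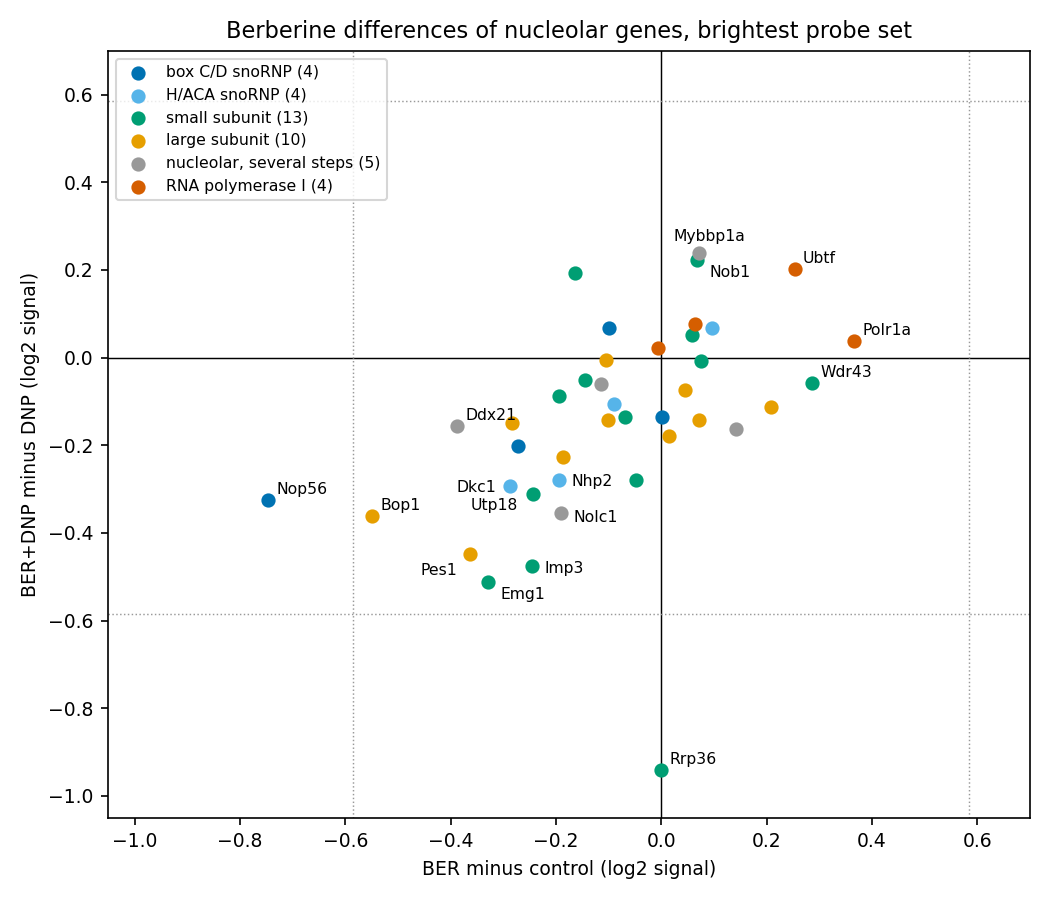
Each point is 1 of the 40 members past the filter, placed by its log2 difference of BER minus control (horizontal) and of BER+DNP minus DNP (vertical) and coloured by role; solid lines mark 0 and dotted lines 1.5-fold. The lower left holds 21 points and the upper right 7, and no point passes 1.5-fold in both pairs.

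Some control transcripts also differed between the arrays of a berberine pair. The poly-A RNAs that are added to each sample before labelling had a median difference of -0.48 for BER minus control and -0.14 for BER+DNP minus DNP over 24 probe sets. The hybridisation controls, which are added after labelling, had 0.03 and 0.10 over 18 probe sets. The beta-actin 5′ probe set gave -0.57 and -0.59 and its 3′ probe set -0.31 and -0.22, while those of Gapdh lay between -0.08 and 0.05. Their part in the members' differences was not tested.

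**Figure D2:**
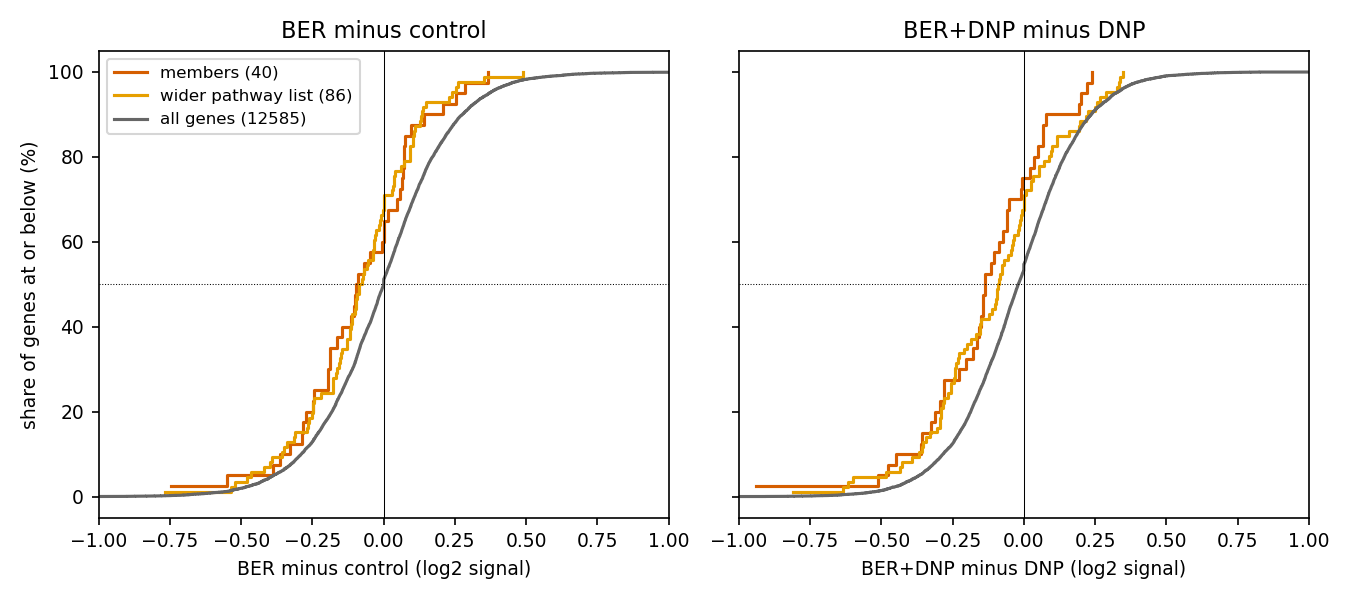
The curves give, for BER minus control and for BER+DNP minus DNP, the share of genes (vertical) at or below each log2 difference (horizontal), for the 40 members, the wider pathway list and all 12585 genes past the filter. The member medians of -0.09 and -0.14 lie left of those of all genes, 0.00 and -0.02.

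The 4 RNA polymerase I members past the filter were the one role with medians above 0. Their median difference was 0.16 for BER minus control and 0.06 for BER+DNP minus DNP and all 4 lay above 0 in the second pair (background 45.4%). The 7 other RNA polymerase I genes of the wider list described at the end had medians of -0.09 and -0.21. Of these 7, 0 lay above 0 in both pairs (background 25.4%). Without probe sets of suffix x, s or a, explained below, the first median of the members was -0.00626. Ubtf, the upstream binding factor that opens ribosomal DNA for transcription, had a log2 signal of 6.47 in BER against 6.22 in control and of 6.53 in BER+DNP against 6.33 in DNP. Both berberine arrays were the higher ones, by 0.25 and 0.20, and the other Ubtf probe set past the filter gave 0.16 and 0.18. Polr1a, which codes for the largest catalytic subunit, read 5.20 in BER against 4.84 in control and 5.04 in BER+DNP against 5.00 in DNP. The difference of 0.37 in the first pair was the highest of any member, that of 0.04 in the second was near 0, and the other Polr1a probe sets past the filter gave -0.05 and 0.21 in the first pair and 0.03 and 0.07 in the second. Polr1b, the second largest subunit, read 4.64 in BER against 4.57 in control and 4.52 in BER+DNP against 4.44 in DNP. Polr1c, a subunit shared with RNA polymerase III, read 6.02 in BER against 6.03 in control and 5.88 in BER+DNP against 5.86 in DNP. Polr1b and Polr1c each differed by less than 0.1 in both berberine pairs. Rrn3, the initiation factor that recruits the polymerase, did not pass the filter.

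The box C/D snoRNP genes had a median of -0.19 for BER minus control and -0.17 for BER+DNP minus DNP, and 2 of 4 were lower on both berberine arrays without overlap (background 19.7%). The first median was -0.05 without probe sets of suffix x, s or a, and the second was -0.04 after quantile normalization. Nop56, a core protein of the particle, read 7.07 in BER against 7.82 in control and 7.36 in BER+DNP against 7.68 in DNP. It was 1.68-fold lower in BER than in control, which ranked 32 from the lowest of 12585 genes, and differed by -0.32 in the second pair. A second, dimmer Nop56 probe set past the filter gave -0.08 and -0.04, so the size rests on 1 probe set. Fbl, fibrillarin, the methyltransferase of the particle, read 7.05 in BER against 7.32 in control and 7.15 in BER+DNP against 7.35 in DNP. Its other probe set past the filter gave 0.06 and -0.21, so only the second pair had the same sign on both. Nop58, the partner of Nop56 in the particle, read 9.57 in BER against 9.57 in control and 9.51 in BER+DNP against 9.64 in DNP. Rrp9, a protein of the U3 snoRNP, read 6.54 in BER against 6.63 in control and 6.68 in BER+DNP against 6.61 in DNP. Neither Nop58 nor Rrp9 kept its sign across the pairs.

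Of the H/ACA snoRNP genes, 3 of 4 were lower on both berberine arrays without overlap (background 19.7%), and the medians were -0.14 and -0.19. Over the 8 alternatives they ran from -0.29 to -0.05 in each pair. They were lowest without probe sets of suffix x, s or a, where Dkc1 alone was left past the filter. Dkc1, dyskerin, the pseudouridine synthase that is mutated in dyskeratosis congenita, read 5.40 in BER against 5.68 in control and 5.29 in BER+DNP against 5.58 in DNP. The 2 differences, both -0.29, were the same to 2 decimals. Nhp2, a core protein of the particle, read 6.43 in BER against 6.63 in control and 6.35 in BER+DNP against 6.62 in DNP. Gar1, a further core protein, read 4.36 in BER against 4.45 in control and 4.28 in BER+DNP against 4.38 in DNP. These differences were -0.19 and -0.28 for Nhp2 and -0.09 and -0.11 for Gar1. Nop10, the smallest core protein, read 6.88 in BER against 6.78 in control and 7.04 in BER+DNP against 6.97 in DNP. On this brightest probe set it was the exception, higher with berberine in both pairs by 0.10 and 0.07. The other Nop10 probe set, which lay just below the filter with a mean of 2.99, went the other way, at -0.21 and -0.34.

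**Figure D3:**
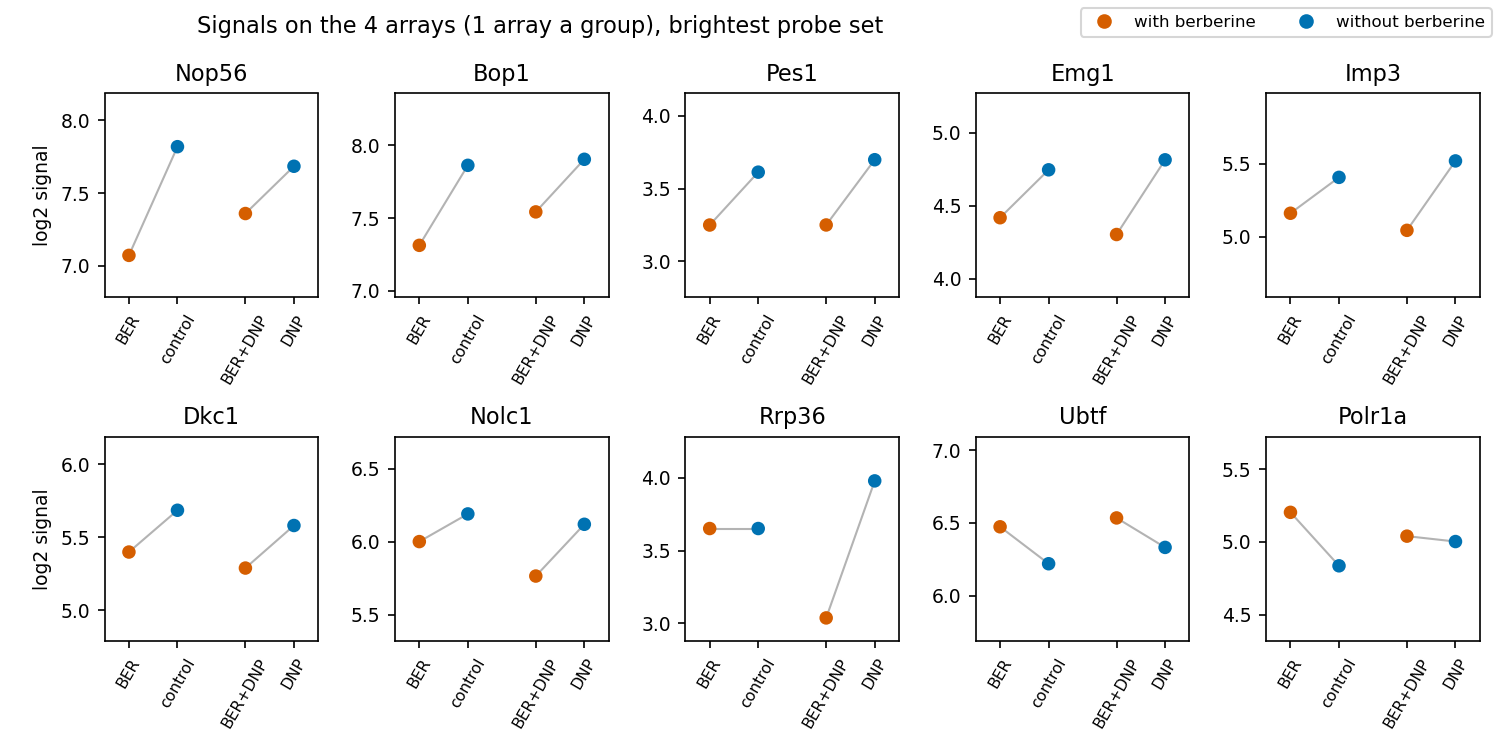
Log2 signals (vertical) of the brightest probe set of 10 members on the 4 arrays, orange with berberine and blue without, with a line joining each berberine pair and an axis of its own for each gene. Nop56, Bop1, Pes1, Emg1, Imp3, Dkc1 and Nolc1 were lower on both berberine arrays than on both others, Ubtf and Polr1a higher, and Rrp36 differed in the pair with anti-DNP IgE and was identical in BER and control.

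Small subunit processing had 13 members past the filter, with medians of -0.07 and -0.09, and 7 of them lay below 0 in both berberine pairs (background 29.7%) and 2 above (background 25.4%). Emg1, a methyltransferase of small subunit ribosomal RNA, read 4.42 in BER against 4.75 in control and 4.30 in BER+DNP against 4.82 in DNP. Its differences were -0.33 and -0.51, and the array has no other Emg1 probe set of 1 symbol. Imp3, a protein that binds the U3 snoRNA with Mpp10, gave differences of -0.25 and -0.48, and its partner Imp4 gave 0.08 and -0.01. Utp18, a protein of the small subunit processome, the complex that makes the first cuts, gave -0.24 and -0.31. Utp20, of the same complex, gave -0.05 and -0.28, and the GTPase Bms1 gave -0.19 and -0.09. All 5 of Emg1, Imp3, Utp18, Utp20 and Bms1 were lower on both berberine arrays without overlap.

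Rrp36, which takes part in the early cuts, read 3.65 in BER against 3.65 in control and 3.04 in BER+DNP against 3.98 in DNP. BER and control hold the identical value in the deposited table, as do 157 of the 12585 genes in that comparison. In the second pair it was 1.92-fold lower in BER+DNP, which ranked 3 from the lowest of all genes, and that BER+DNP reading lay below the filter's level. The BER+DNP array was the low one, and it is also the array behind the Rrp36 difference in BER+DNP against BER given below.

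Wdr43, a processome protein that also promotes ribosomal DNA transcription, read 6.62 in BER against 6.33 in control and 6.52 in BER+DNP against 6.58 in DNP. Its 2 probe sets past the filter gave 0.29 and 0.37 in the first pair and -0.06 and -0.13 in the second, so both changed sign between the pairs. Nob1, the endonuclease that makes the last cut of small subunit ribosomal RNA, read 5.34 in BER against 5.27 in control and 5.27 in BER+DNP against 5.05 in DNP. Heatr1, a processome protein tied to ribosomal DNA transcription, read 3.93 in BER against 3.87 in control and 4.06 in BER+DNP against 4.01 in DNP. The second Heatr1 probe set past the filter was opposite in both pairs, at -0.18 and -0.12. Utp15 gave -0.16 and 0.19, the helicase Ddx10 -0.15 and -0.05, and Utp14a -0.07 and -0.14.

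Large subunit assembly had 10 members past the filter, with medians of -0.10 and -0.15. All 10 lay below 0 in BER+DNP against DNP (background 53.2%), and 6 of 10 did in BER against control (background 49.9%). Bop1 and Pes1 code for proteins of the PeBoW complex, which matures the large subunit ribosomal RNA. Bop1 read 7.31 in BER against 7.86 in control and 7.54 in BER+DNP against 7.90 in DNP. That was 1.46-fold lower in the first pair and -0.36 on the log2 scale in the second, while its second probe set gave 0.07 and -0.12. Pes1 read 3.25 in BER against 3.61 in control and 3.25 in BER+DNP against 3.70 in DNP. The differences were -0.36 and -0.45, and the other Pes1 probe set, which lay below the filter, gave 0.45 and -0.91. Wdr12, the remaining PeBoW subunit, gave 0.02 and -0.18, so the 3 subunits shared a direction only in the pair with anti-DNP IgE.

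Among the other large subunit members, Wdr74 gave -0.19 and -0.23 and Noc2l gave -0.28 and -0.15, and both were lower on both berberine arrays without overlap. The other Noc2l probe set, which lay just below the filter with a mean of 3.07, was higher with berberine in both pairs, by 0.17 and 0.21. Nop2, a methyltransferase of large subunit ribosomal RNA, gave -0.10 and -0.14, and Nop16 gave -0.11 and -0.01. Gnl2, a nucleolar GTPase, read 4.13 in BER against 3.92 in control and 4.06 in BER+DNP against 4.18 in DNP, so its differences of 0.21 and -0.11 had opposite signs. Rrp1 read 4.37 in BER against 4.33 in control and 4.25 in BER+DNP against 4.32 in DNP, differences of 0.05 and -0.07. The helicase Ddx18 likewise gave 0.07 and -0.14, with 0.23 and -0.37 on its second probe set past the filter.

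Nucleolar proteins that act at several steps had medians of -0.11 and -0.16 over 5 genes, and 3 of the 5 were lower on both berberine arrays without overlap (background 19.7%). With the median of a gene's probe sets in place of the brightest, the second of these medians was 0.0615. Ddx21, a helicase of RNA polymerase I transcription and processing, read 5.00 in BER against 5.39 in control and 5.13 in BER+DNP against 5.28 in DNP. Nolc1, a chaperone of snoRNPs, read 6.00 in BER against 6.19 in control and 5.76 in BER+DNP against 6.12 in DNP. Its other probe set past the filter was higher with berberine in both pairs, by 0.11 and 0.22, so the 2 Nolc1 probe sets disagreed in sign. Npm1, nucleophosmin, an abundant nucleolar chaperone, gave -0.11 and -0.06 on its brightest probe set and -0.28 and -0.41 on a dimmer one, and both were below 0 throughout. Ncl, nucleolin, read 4.79 in BER against 4.65 in control and 4.95 in BER+DNP against 5.11 in DNP. Its second probe set past the filter gave -0.20 and -0.31, so the 2 agreed in sign only in the pair with anti-DNP IgE. Mybbp1a, a Myb-binding repressor found in the nucleolus, read 5.73 in BER against 5.65 in control and 5.48 in BER+DNP against 5.24 in DNP, higher with berberine in both pairs by 0.07 and 0.24.

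**Figure D4:**
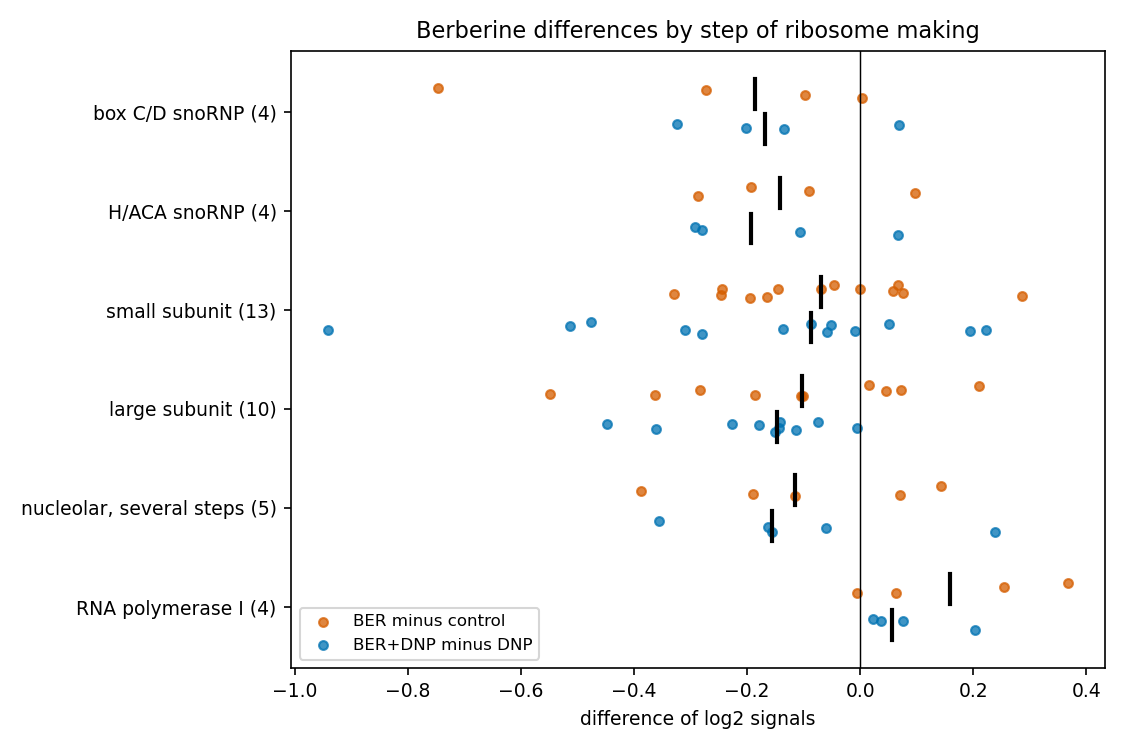
Log2 differences (horizontal) of each member past the filter for BER minus control (orange) and BER+DNP minus DNP (blue), by role (rows, with the number of members), with a black bar at each role's median. The medians of the RNA polymerase I members are 0.16 and 0.06 and those of the other 5 roles lie between -0.19 and -0.07.

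Probe sets of 1 gene read its transcripts on the same arrays, so they are no replicates of a group, but their differences can be set side by side. Of the 51 members, 33 had several probe sets and 12 had at least 2 past the filter. In these 12, the 13 further probe sets had the sign of the brightest one in 7 cases for BER minus control and in 11 for BER+DNP minus DNP. All passing probe sets of a gene went the same way in both berberine pairs in 4 of the 12 members, and in 2, Heatr1 and Nolc1, a pair of probe sets went opposite ways in both. The brightest probe set carried the suffix x, s or a, by which the maker marks probes that may match other or several transcripts, in 16 of the 51 members.

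**Figure D5:**
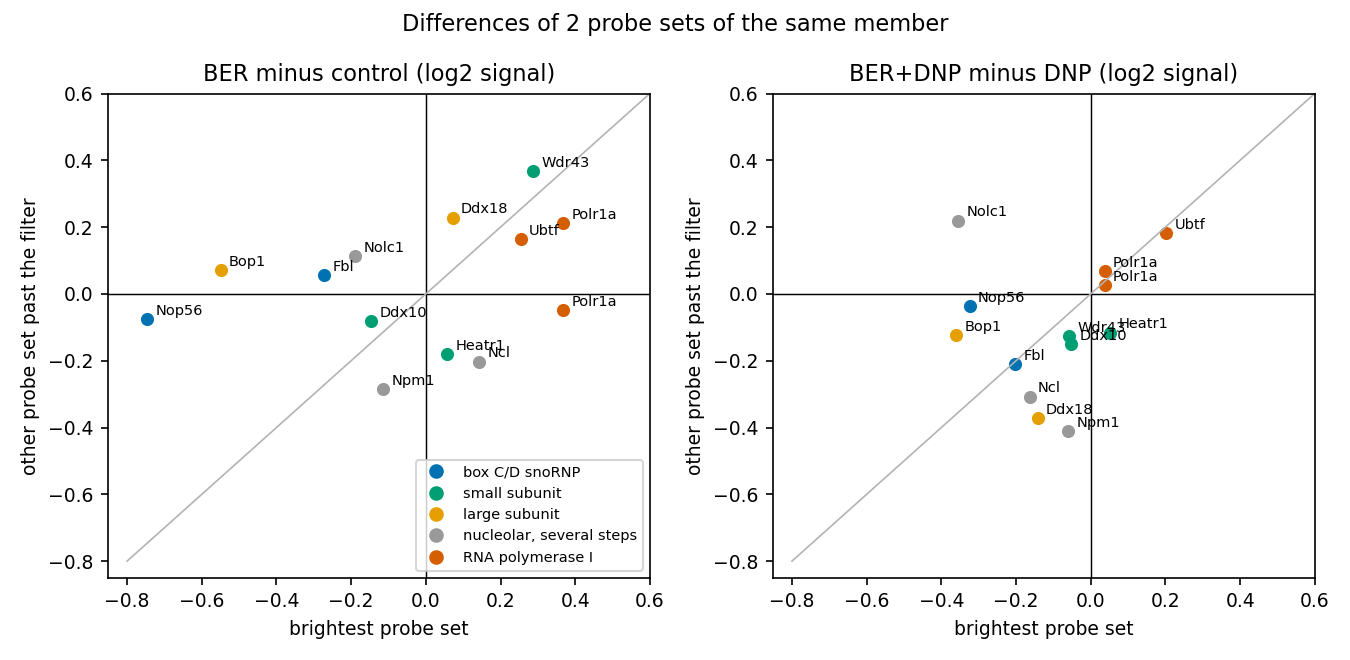
For members with at least 2 probe sets past the filter, the log2 difference of each further probe set (vertical) against that of the brightest (horizontal), in both berberine comparisons; the grey line marks equal values and colours mark the role. For Nop56 the further probe set gave -0.08 where the brightest gave -0.75 in BER minus control.

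The 11 members that did not pass the filter were Utp3, Utp6, Nop14, Tsr1, Ltv1 and Rrp12 of the small subunit, Rrs1, Gnl3, Nip7 and Ftsj3 of the large subunit, and Rrn3. Their brightest probe sets had mean log2 signals between 1.85 and 2.84, so their differences are those of weak signals. Utp3 had the largest difference for BER minus control, -0.46, and Nip7 for BER+DNP minus DNP, -0.35. Whether they differed was not detectable at these signals.

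Anti-DNP IgE was compared without berberine (DNP against control) and with it (BER+DNP against BER), in pairs which share no array with each other but share arrays with the berberine comparisons. The member medians were 0.04 and -0.00, where all genes had 0.02 and 0.00. In DNP against control, 0 of 40 members were at least 1.5-fold higher (background 0.803%) and 0 lower (0.628%). In BER+DNP against BER, 0 were higher (0.556%) and 1, Rrp36, was lower (0.358%), with a difference of -0.61. In DNP against control 17 of 40 lay below 0 (background 45.4%) and 23 above (background 53.3%). In BER+DNP against BER 20 of 40 lay below 0 (background 49.9%) and 20 above (background 48.8%). In both pairs at once, 0 passed 1.5-fold in either direction (background 0.0159% each way), and 12 of 40 lay below 0 (30%; background 26%) and 15 above 0 (37.5%; background 29.4%). Both anti-DNP IgE arrays read lower than both others for 6 members (15%; background 16.4%), namely Ddx10, Imp4, Mybbp1a, Polr1b, Polr1c and Rrp1. They read higher for 6 (15%; background 18.1%), namely Ddx18, Heatr1, Ncl, Nop10, Nop2 and Utp14a. These shares were near those of all genes. The second Heatr1 probe set past the filter went the other way, at -0.42 and -0.35, so the 2 Heatr1 probe sets disagreed in sign. The second Ddx10 probe set past the filter gave 0.01 and -0.05.

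Ncl, Ddx18 and Mybbp1a had the widest differences in DNP against control. Ncl gave 0.46 there and 0.16 in BER+DNP against BER, and Mybbp1a gave -0.41 and -0.24. Ddx18 gave 0.41 and 0.20, and its second probe set gave 0.41 and -0.19. By role, the medians for DNP minus control and BER+DNP minus BER were -0.01 and -0.13 for RNA polymerase I, 0.00 and 0.12 for box C/D snoRNPs, -0.03 and -0.08 for H/ACA snoRNPs, 0.10 and -0.07 for the small subunit, 0.08 and 0.06 for the large subunit and -0.07 and 0.06 for the proteins of several steps. No role lay more than 0.1 from 0 in both pairs.

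A wider list of 114 further genes of the pathway, none of them a member, was described in the same way. Of these, 108 were on the array and 86 passed the filter. Their medians were -0.08 for BER minus control and -0.09 for BER+DNP minus DNP. In both berberine pairs 41 of 86 lay below 0 and 9 above, against the 29.7% and 25.4% of all genes, and 29 were lower on both berberine arrays without overlap (33.7%) and 3 higher (3.49%), against 19.7% and 16.1%. In BER against control 1 was at least 1.5-fold lower (1.16%; background 0.985%) and 0 higher (background 1.01%). In BER+DNP against DNP 4 were lower (4.65%; background 0.699%) and 0 higher (background 0.509%). By role, 6 of the 11 exosome genes, whose products trim and degrade ribosomal RNA precursors, were lower on both berberine arrays without overlap, as were 11 of 32 large subunit genes, 7 of 29 small subunit genes, 3 of 7 genes of snoRNP assembly and 2 of 7 RNA polymerase I genes, where 19.7% of all genes were.

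The genes of that list past 1.5-fold were Nmd3, Exosc3, Dis3, Taf1d and Dhx37. Nmd3, the export adaptor of the large subunit, read 6.47 in BER against 6.99 in control and 6.28 in BER+DNP against 6.89 in DNP. Exosc3, a cap subunit of the exosome, read 6.30 in BER against 6.78 in control and 6.16 in BER+DNP against 6.79 in DNP. Both genes were lower on both berberine arrays, with differences of -0.52 and -0.62 for Nmd3 and -0.48 and -0.64 for Exosc3. Dis3, an exosome nuclease, read 3.37 in BER against 3.61 in control and 3.08 in BER+DNP against 3.89 in DNP. That BER+DNP reading of Dis3 lay below the filter's level. Taf1d, a subunit of the RNA polymerase I promoter factor SL1, read 4.22 in BER against 4.08 in control and 3.79 in BER+DNP against 4.39 in DNP. Dhx37, a helicase of the small subunit processome, read 3.37 in BER against 4.13 in control and 3.49 in BER+DNP against 3.46 in DNP. Taf1d and Dhx37 each passed 1.5-fold in 1 pair and had the opposite sign in the other. The Nmd3 and Taf1d differences for BER+DNP minus DNP depended on the probe set: with the median of a gene's probe sets they were 0.0674 for Nmd3 and 0.143 for Taf1d.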

How the data were processed

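Total RNA labelled as coming from 4 MC/9 cultures was measured on 4 Affymetrix Mouse Genome 430 2.0 arrays, 1 per group. The deposited values are log2 signals per probe set, which the authors made with Affymetrix Expression Console per the submitters' processing notes. Not given in the sources used here are its version, the background correction, the summary algorithm and any detection calls. The log2 scale was read from the values, and the array medians were near equal, so the table was used as deposited. An unstated floor or smoothing can shrink differences of dim probe sets. The number of arrays limits the precision.

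Of 45101 probe sets, 64 controls were set apart. A platform annotation of 2016 gave 1 symbol to 34945 of the rest, more than 1 to 932 and no symbol to 9160. Probe sets with more than 1 symbol named no gene. A gene is its brightest probe set with 1 symbol, and the filter is a mean log2 signal of 3.14. The comparisons are differences of log2 signals between 2 arrays, counted at 1.5-fold and 2-fold and by sign, beside the same counts over all genes. No test, SE or interval is given, since no group has a replicate; models that pool the 4 arrays and assume no interaction were not fitted. Values on all 4 arrays are given for members at least 1.5-fold apart in any comparison, for the 2 lowest and 2 highest of each role by mean berberine difference, and for members whose probe sets past the filter went opposite ways in both berberine pairs. Of the wider list, genes at least 1.5-fold apart in a berberine pair are named. Other members are given by their differences. The members, lists and rules were chosen with earlier results of these data known. The 8 alternatives were other filters, quantile normalization, median centring, constants added to the linear signals, the median of a gene's probe sets and leaving out probe sets of suffix x, s or a. The 1.5-fold count in both berberine pairs and the median were tested on simulated data with known changes, which were larger than the members' differences. The counts by sign and without overlap were not tested in this way. Python 3.11.15, numpy 2.4.6, pandas 2.3.3 and scipy 1.17.1 were used.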

Additional observations from a re-analysis of the deposited data

Results flagged for a closer look

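The differences here compare an effect with and without the other agent, as the log2 berberine difference with anti-DNP IgE (BER+DNP minus DNP) less that without it (BER minus control), for members past the filter, and genes named from the wider list, whose berberine or anti-DNP IgE differences had opposite signs in the 2 pairs. None of these differences was tested, since each group holds 1 array. Among the snoRNP genes, the value was 0.42 for Nop56, whose anti-DNP IgE differences were 0.29 with berberine and -0.13 without. It was -0.14 for Nop58 and 0.17 for Rrp9, each with opposite signs for both agents. Among the small subunit genes, it was -0.94 for Rrp36, whose anti-DNP IgE differences were -0.61 with berberine and 0.33 without, 0.36 for Utp15, -0.35 for Wdr43, -0.23 for Imp3, -0.18 for Emg1, 0.11 for Bms1 and -0.0840 for Imp4. Among the large subunit genes, it was -0.32 for Gnl2, with berberine differences of -0.11 with anti-DNP IgE and 0.21 without, -0.21 for Ddx18, -0.19 for Wdr12 and -0.12 for Rrp1. For the RNA polymerase I genes, it was -0.33 for Polr1a and 0.0291 for Polr1c, whose berberine differences of 0.02 and -0.01 were both near 0. For Ddx21 it was 0.23 and for Ncl -0.31. In the wider list it was 0.80 for Dhx37, -0.74 for Taf1d, -0.56 for Dis3 and -0.15 for Exosc3. All these values rest on each gene's brightest probe set. Further probe sets past the filter gave anti-DNP IgE differences, with and without berberine, of 0.13 and 0.09 for Nop56. For Polr1a they gave -0.11 and -0.18, and -0.04 and 0.11. Berberine differences, with and without anti-DNP IgE, were -0.31 and -0.20 for Ncl. They kept opposite signs for Wdr43 (-0.13 and 0.37) and Ddx18 (-0.37 and 0.23).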

How the results depend on the processing

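No paired analysis was possible because no group has a second replicate number for a replicate block; the 2 pairs of each agent are given side by side instead. The count of members lower on both berberine arrays without overlap lay between 12 and 21 over the 8 alternatives, where the reported count is 17. The 12 came of 31 members without probe sets of suffix x, s or a, where 2037 of 10768 genes were lower. The 21 came of 40 members after median centring, where 2798 of 12585 genes were lower. With 32 or 100 added it was 17, but a constant cannot change the order of a probe set's signals, so these settings do not check the count. Medians were read as moved if they shifted by more than the difference between the 2 pairs' medians, 0.0412 for berberine and 0.0390 for anti-DNP IgE. Counts were read as moved if they changed by more than 1.5-fold, or to or from 0. By these rules 20 summary values moved and 156 did not, and many of the 156 were counts of 0 that stayed 0. For BER minus control the member median was -0.0325 with 32 and -0.0136 with 100 added to the linear signals, which shrinks all differences by construction. For BER+DNP minus DNP it was -0.0634 and -0.0349 with those constants and -0.0907 after quantile normalization. For DNP minus control it was -0.00962 after quantile normalization, and for BER+DNP minus BER -0.0638 with no filter and -0.0628 without probe sets of suffix x, s or a. Members at least 1.5-fold lower numbered 0 in BER against control with 100 added or the median of a gene's probe sets, and 0 in BER+DNP against DNP and in BER+DNP against BER with the 75th percentile filter or with 32 or 100 added. In BER+DNP against DNP they numbered 2 with the median of probe sets. Members above 0 in both berberine pairs numbered 3 without suffixed probe sets. Members higher on both berberine arrays numbered 4 after quantile normalization and 0 without suffixed probe sets. Among role medians of at least 0.05 in size and genes past 1.5-fold, signs turned as follows, and the cause was not tested. Without suffixed probe sets, RNA polymerase I gave -0.00626 for BER minus control, the proteins of several steps 0.0567 for DNP minus control and -0.0785 for BER+DNP minus BER, and Nmd3 0.218 for BER+DNP minus DNP. With the median of probe sets, the proteins of several steps gave 0.0615, Nmd3 0.0674 and Taf1d 0.143 for BER+DNP minus DNP, and H/ACA snoRNPs 0.0338 for BER+DNP minus BER. With no filter, the small subunit gave -0.0338 for DNP minus control and the large subunit -0.0346 for BER+DNP minus BER. After quantile normalization the proteins of several steps gave -0.0369 for BER+DNP minus BER. Smaller medians for DNP minus control turned too, to 0.166 for H/ACA snoRNPs (median of probe sets), to -0.0703 at the lowest for box C/D snoRNPs (quantile normalization) and to 0.0181 at the highest for RNA polymerase I (median of probe sets). Weak signals limit the 11 members below the filter and those nearest above it, Pes1, Nop16, Rrp36 and Nop2.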
